A study of Mus musculus with 4 samples.

Results

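The genes described here code for subunits of the transcription factor NF-kB, the proteins that restrain and release it, and the receptors for tumour necrosis factor (TNF) that switch it on. They were taken from a list of 10 genes, Rel, Rela, Relb, Nfkb1, Nfkb2, Nfkbia, Nfkbib, Ikbkb, Tnfrsf1a and Tnfrsf1b, as all probe sets that the platform's annotation pairs with 1 of these symbols and no other. This gave 13 probe sets for 9 genes, of 12488 probe sets in all, among which 8252 genes have a probe set of their own symbol. No probe set carries the symbol Nfkb1 alone in the annotation used here, and Nfkb1 was not analysed here. The series holds 4 arrays of total RNA from hippocampal CA1, taken from C57BL/6J mice that were young and male. The mice were controls that were handled and given no other treatment. Each array differs from the others by the hour of RNA extraction, 1, 2, 4 or 6 hr counted from the last shock given to a separate set of mice, with 1 array at each time. The sources used here do not give the number of mice behind an array, and no array of a shocked mouse was analysed here. The data therefore show the array signal of these genes' RNA in CA1 of handled controls and how far it differed between single arrays.

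In the textbook account, NF-kB is a dimer of Rel family proteins held in the cytoplasm by inhibitors of the IkB family. Binding of TNF to its receptors activates the IkB kinase complex, which marks IkB for destruction so that the dimer enters the nucleus. Nfkbia is itself a target of NF-kB, which makes a negative feedback loop. In the brain the pathway is known from microglia, astrocytes and endothelial cells, and in neurons it has been linked to synaptic activity and memory.

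The promoter windows of 4 members are shown because they differ in whether they hold a kappaB-type motif, the DNA element through which NF-kB acts. Each window runs from 250 bases before to 50 bases after the annotated start of transcription (RefSeq, GRCm38.p6) and is written 5′ to 3′ on the gene's own strand. Capitals mark matches to GGGANTTNCC on either strand. The Nfkbia window is chr12:55492598-55492897 on the minus strand, and that of Rel is chr11:23770920-23771219 on the minus strand. The first of 3 Nfkb2 windows is chr19:46304487-46304786 on the plus strand, and the Tnfrsf1a window is chr6:125349473-125349772 on the plus strand.
Nfkbia: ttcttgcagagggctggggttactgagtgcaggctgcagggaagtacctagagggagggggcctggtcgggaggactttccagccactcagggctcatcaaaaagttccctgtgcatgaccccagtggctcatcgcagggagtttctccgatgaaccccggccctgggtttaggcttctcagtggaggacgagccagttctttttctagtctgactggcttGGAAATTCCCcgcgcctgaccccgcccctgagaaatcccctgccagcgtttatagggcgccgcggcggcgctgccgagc
Nfkb2: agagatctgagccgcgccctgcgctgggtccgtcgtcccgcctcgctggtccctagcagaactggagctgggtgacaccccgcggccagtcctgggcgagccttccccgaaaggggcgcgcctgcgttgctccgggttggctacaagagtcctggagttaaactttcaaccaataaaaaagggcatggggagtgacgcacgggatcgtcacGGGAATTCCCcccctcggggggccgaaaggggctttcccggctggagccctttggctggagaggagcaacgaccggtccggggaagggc
Rel: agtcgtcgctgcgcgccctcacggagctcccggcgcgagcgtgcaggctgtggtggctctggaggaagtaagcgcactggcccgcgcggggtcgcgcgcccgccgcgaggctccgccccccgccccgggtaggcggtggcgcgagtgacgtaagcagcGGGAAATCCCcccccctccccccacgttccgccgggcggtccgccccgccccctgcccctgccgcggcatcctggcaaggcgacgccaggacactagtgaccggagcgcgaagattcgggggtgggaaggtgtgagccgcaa
Tnfrsf1a: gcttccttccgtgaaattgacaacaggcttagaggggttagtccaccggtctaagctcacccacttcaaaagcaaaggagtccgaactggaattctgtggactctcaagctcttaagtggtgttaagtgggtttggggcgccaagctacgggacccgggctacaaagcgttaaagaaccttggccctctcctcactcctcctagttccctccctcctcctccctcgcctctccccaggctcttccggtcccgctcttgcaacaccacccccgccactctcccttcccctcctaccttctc

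The match in Nfkbia starts 29 bases before the annotated start, that in the first Nfkb2 window 39 bases before it, and that in Rel 92 bases before it. The Nfkb2 match reads the same on both strands and was counted once. Windows 2 and 3 of Nfkb2 overlap and share 1 further match, GGGACTTTCC. The windows of Rela, Nfkbib, Tnfrsf1a and Tnfrsf1b hold no match. Of 9 member windows, from 7 genes, 5 hold a match, 3 of them windows of Nfkb2, while 381 of 32544 distinct promoter windows do, a share of 1.17%. The letters searched were chosen after the members' windows had been read, so the members' share was not tested. A match is a description of the letters and not a measured binding site.

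The arrays were alike in scale. Their trimmed means lay at 500.3 and their medians between 173 and 204. The Actb 3' to 5' signal ratio lay between 2.99 and 3.44 and that of Gapdh between 4.84 and 7.56. The array at 2 hr had both the lowest median, 173 against 198 to 204 on the others, and the highest Gapdh ratio. The 25th percentile, 54.7, served as a floor, and lower values were treated as lying on it. Of 7 CA1 pyramidal neuron markers on the array 6 were above the floor on all 4 arrays, among them Wfs1, Dcn and Neurod6. The exception, Camk2a, read 153.8, 137.3, 161.4 and 53.2 at 1, 2, 4 and 6 hr. Markers of CA3 pyramidal neurons summed to 3717 at 1 hr and to between 2342.5 and 2629 on the other arrays. Of these 3 CA3 markers 3 were above the floor on all 4 arrays, and of 5 dentate granule cell markers 4 were. Of 12 microglial markers 10 were, and of 13 endothelial and mural markers 8 were. These are bulk samples, in which fewer cells of a type and less RNA per cell cannot be told apart. The choroid plexus gene Ttr read 3217 at 4 hr and 140.3 to 196 on the other arrays, while 2 other choroid plexus markers, Kl and Folr1, were not highest at 4 hr.

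Among the Rel family subunits, Rela, Relb and Nfkb2 were measured above the floor on all 4 arrays, and Rel lay near or under it. Rela, which codes for the transactivating subunit p65, read 975, 1096, 1263 and 1102 at 1, 2, 4 and 6 hr. It was highest at 4 hr and lowest at 1 hr, 1.30-fold apart, and 86.4% of the probe sets on the array had a lower mean. Its other probe set, 162042_i_at, read 27.5, 11.2, 51.2 and 12.6 and was under the floor on every array, so the brighter one carries the measurement. Probe intensities depend on the probes as well as on the RNA, so no order of transcript abundance between genes is drawn from them.

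Relb, the subunit of the non-canonical branch of the pathway, read 230.1, 292, 384.5 and 198 at 1, 2, 4 and 6 hr. The array at 4 hr was the highest and that at 6 hr the lowest, 1.94-fold apart. Its other probe set, 162372_f_at, read 53.4, 60, 32.6 and 29.9 and passed the floor at 2 hr alone. Nfkb2 codes for p100, the precursor that partners with Relb, and read 211, 148.5, 206 and 167. It was highest at 1 hr and lowest at 2 hr, 1.42-fold apart, and so did not share the order of Relb. Rel, the c-Rel subunit best known from lymphocytes, read 44.3, 63.3, 14.4 and 35.3, above the floor at 2 hr alone. Whether Rel was above background cannot be read from these values, since no detection calls were used here.

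The inhibitors were well above the floor on all 4 arrays. Nfkbia, which codes for IkB-alpha, is measured by 2 probe sets. Its brighter one, 101554_at, read 829, 850.0, 808 and 970.4 at 1, 2, 4 and 6 hr, and the other, 104149_at, read 408, 399, 459 and 650.2. Both were highest at 6 hr, by 1.14-fold and 1.42-fold over the next array, and they differed in which array was lowest. Nfkbib, which codes for IkB-beta, read 788, 555, 921 and 755. It was highest at 4 hr and lowest at 2 hr, 1.66-fold apart, an order unlike that of either Nfkbia probe set.

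The kinase that releases NF-kB from its inhibitors was dim. Ikbkb, the catalytic subunit IKK-beta, read 171, 106, 66.9 and 134 at 1, 2, 4 and 6 hr. It was lowest at 4 hr, the array on which Rela, Relb and Nfkbib were highest, and its highest value was 2.56-fold above its lowest. Its mean lay under the filter on low values, so it was not tested.

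**Figure D1:**
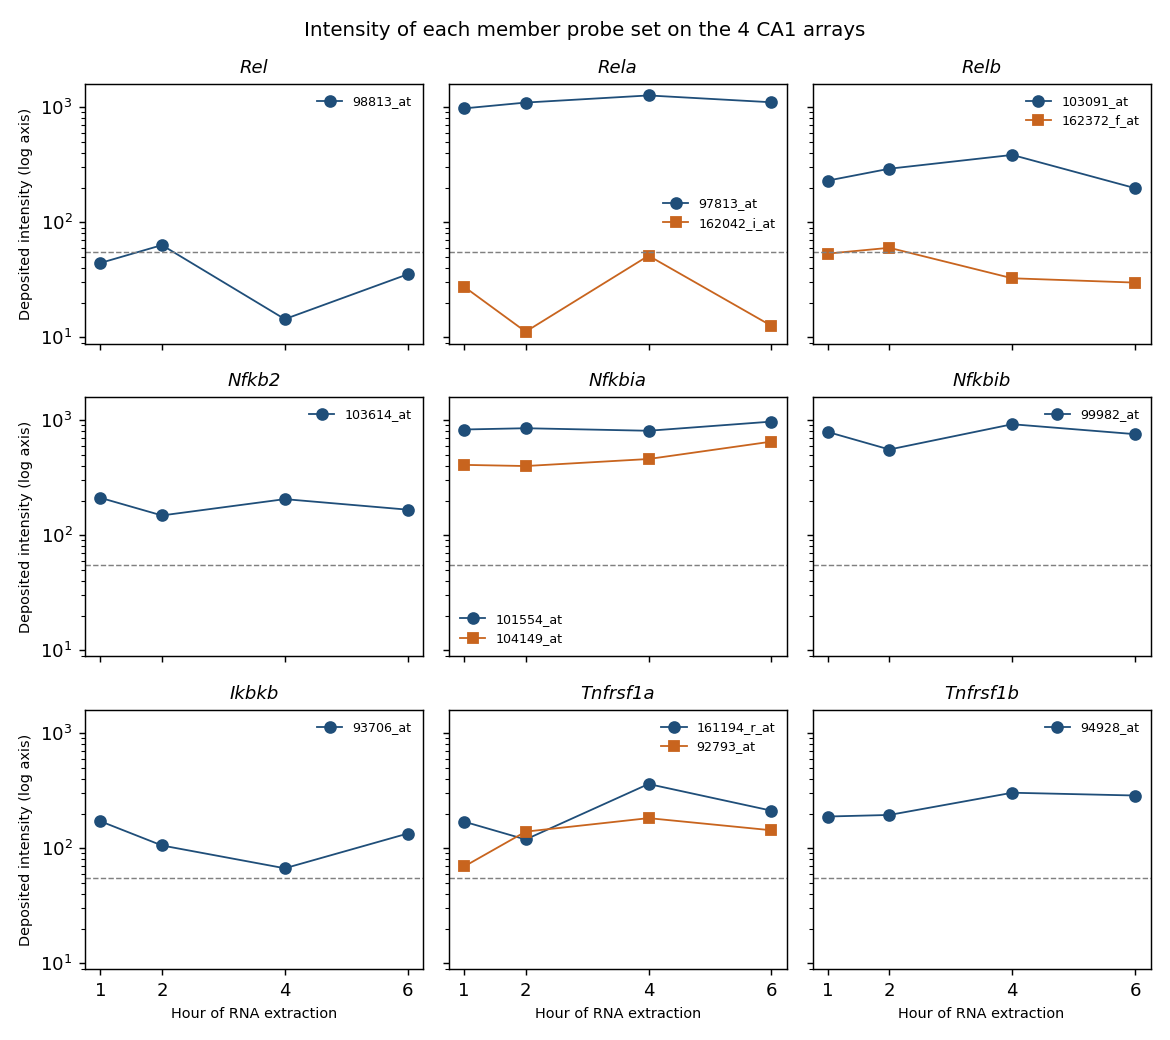
Deposited intensity (log axis) of every member probe set against the hour of RNA extraction, 1 panel per gene with 1 point per array, and the floor of 54.7 as a dashed line. Nfkbia, Nfkbib and the brighter probe set of Rela lie between 399 and 1263, while Rel and the dimmer probe sets of Rela and Relb lie around or under the floor.

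Among the members above the floor on all 4 arrays, Tnfrsf1a and Ikbkb had the widest range over the arrays. Tnfrsf1a codes for TNFR1, the receptor found on most cell types, and its probe set 161194_r_at read 169.9, 119, 361 and 212 at 1, 2, 4 and 6 hr. Its other probe set, 92793_at, read 69.4, 139, 182 and 143. Both were highest at 4 hr, and on both the values at 4 and 6 hr lay above those at 1 and 2 hr, but the lowest array was 2 hr on the first and 1 hr on the second. The highest value was 3.03-fold above the lowest on 161194_r_at and 2.63-fold on 92793_at. The letter r in a probe set's name marks relaxed rules in choosing its probes.

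Tnfrsf1b codes for TNFR2, in the brain known mainly from microglia and endothelium, and read 188, 194, 303 and 287 at 1, 2, 4 and 6 hr. Its values at 4 and 6 hr also lay above those at 1 and 2 hr. The summed intensity of the microglial markers was 8761, 9114.5, 8366 and 9641 in time order. The sum, of which Ctss and Csf1r are the largest part, was lowest at 4 hr. Cd68, at 222, 336, 416 and 344, Cd14, at 439, 499, 568 and 594, and C1qc, at 1283, 1249.8, 1403 and 1632, had both later values above both earlier ones as Tnfrsf1b did. No other of the 12 microglial markers on the array did so. Tyrobp, at 699.9, 699.9, 592.7 and 679.2, had both later values below both earlier ones. So did Aif1, at 184.8, 41.1, 35.5 and 28.1, which was above the floor at 1 hr alone. The microglial marker Itgam lay under the floor on all 4 arrays. The sum of the endothelial and mural markers was 3505, 3372, 3537 and 3004, highest at 4 hr and lowest at 6 hr. The part of these cell types in the Tnfrsf1b values was not tested.

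No member passed the test for a straight line over the hours. Of the 13 probe sets 9, from 7 genes, passed the filter on mean level and entered limma's test over 7453 probe sets. After Benjamini-Hochberg adjustment 0 of the 9 were called, where 0.0% of all tested probe sets were. At an unadjusted p under 0.05 there were also 0 of the 9, where 5.13% of all tested probe sets were. Ordinary least squares likewise gave 0 adjusted and 0 unadjusted, where 4.47% of all tested probe sets had an unadjusted p under 0.05. Adjusted p-values of the members ran from 0.972 to 1.00. With all 4 arrays the slope was largest for Tnfrsf1a, at 0.18 ± 0.11 log2 units per hr on 92793_at and 0.16 ± 0.13 on 161194_r_at (SE, limma adjusted p = 1.00 for each). It was 0.14 ± 0.07 for Tnfrsf1b (SE, limma adjusted p = 0.977) and 0.14 ± 0.06 for Nfkbia on 104149_at (SE, limma adjusted p = 0.972). Leaving out each array in turn, the Tnfrsf1a slopes ran from 0.010 to 0.43 on 92793_at and from 0.087 to 0.43 on 161194_r_at. Without the 4 hr array 92793_at did not pass the filter, and the largest tested member slope was that of Nfkbia on 104149_at, 0.15. Slopes were above 0 for 7 of the 9, where 50.9% of all tested probe sets were. For Relb and Nfkb2 the slopes were -0.03 ± 0.10 and -0.02 ± 0.08 (SE). Each was smaller than its SE, as were the slopes of Rela, Nfkbib and the brighter Nfkbia probe set.

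No member passed the test of later against earlier arrays after adjustment. The mean log2 value at 4 and 6 hr was above that at 1 and 2 hr by 0.96 and 0.72 log2 units for the 2 Tnfrsf1a probe sets, by 0.62 for Tnfrsf1b and by 0.44 for Nfkbia on 104149_at. Nfkbib differed by 0.33, Rela by 0.19, and Relb, Nfkbia on 101554_at and Nfkb2 by 0.09, 0.08 and 0.06. For Ikbkb the difference was -0.51. The difference of Tnfrsf1a on 92793_at rests on a 1 hr value of 69.4, close to the floor of 54.7, and was 0.30 with the floor at the 40th percentile, under the 0.44 and 0.33 of Nfkbia on 104149_at and Nfkbib. With the arrays shifted to a common median the median difference of all tested probe sets fell by 0.10 to -0.09, and the differences of Relb, Nfkb2 and Nfkbia on 101554_at lay below 0. For 5 of the 9 tested probe sets, those of Tnfrsf1a, Tnfrsf1b, Rela and Nfkbia 104149_at, both later values lay above both earlier ones, where 18.0% of all tested probe sets did so, and for 0 of the 9 they lay below, where 16.1% did. The median difference was 0.33 log2 units over the 9 and 0.01 over all tested probe sets. Probe sets of 1 gene share their RNA, so the 9 are not independent, and the cell and tissue markers above differed between the arrays too. Fitted as a contrast in limma, this difference passed for 0 of the 9 after adjustment, where 0.0% of all tested probe sets passed, and for 2 at an unadjusted p under 0.05, where 5.14% did. These were Tnfrsf1b, with 0.62 ± 0.22 log2 units (SE, limma adjusted p = 0.948), and Tnfrsf1a on 161194_r_at, with 0.96 ± 0.37 (SE, limma adjusted p = 0.948).

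The array at 4 hr held the highest value of 6 of the 9 tested probe sets, those of Rela, Relb, Nfkbib, Tnfrsf1a and Tnfrsf1b, where it did so for 26.5% of all tested probe sets. Ttr, the choroid plexus gene, was also highest on that array, at 3217. The part of other tissue in the members' values was not tested. By contrast 3 of the 9 were lowest at 1 hr and 4 at 2 hr, where 24.3% and 29.0% of all tested probe sets were.

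**Figure D2:**
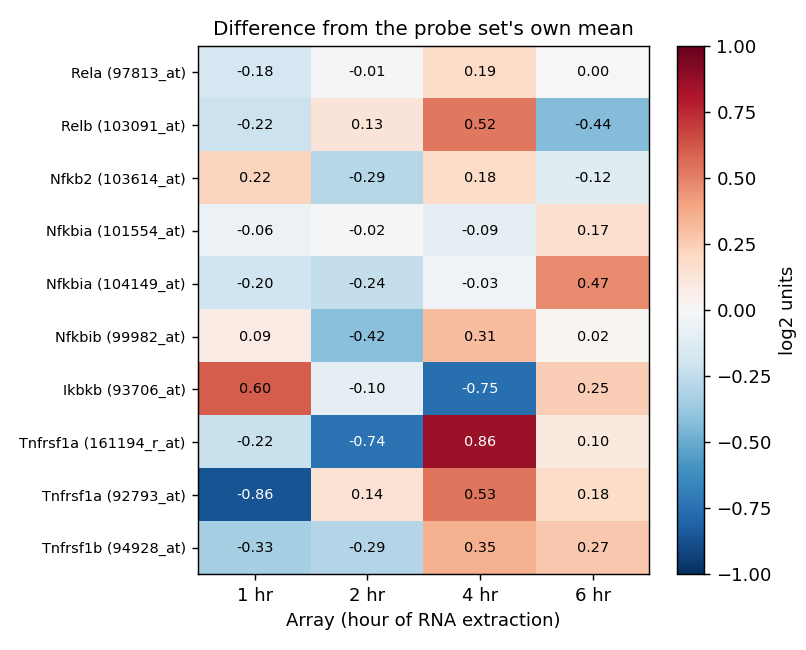
Difference of each array from the probe set's own mean over the 4 arrays, in log2 units of floored values, for the 9 tested member probe sets and Ikbkb (red above the mean, blue below). The largest differences are those of Tnfrsf1a, from -0.86 at 1 hr on 92793_at to 0.86 at 4 hr on 161194_r_at, and of Ikbkb, -0.75 at 4 hr.

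A member stood apart, by the measure used here, if 1 array was higher or lower than all 3 others by 1 log2 unit (2-fold) or more. This was so for 1 of the 9 tested members, where 7.53% of all tested probe sets stood apart. It was Tnfrsf1a on 92793_at, which at 1 hr lay 2.01-fold below the next lowest array, just past the limit. This probe set lies in the dimmest of the 4 bands of mean level described below, where 22.9% of probe sets stood apart. On 161194_r_at the 1 hr array was not the lowest. Ikbkb, not tested, had no array that far from the others. Rel and the dimmer probe sets of Rela and Relb lay on the floor on at least 3 arrays, so the measure says nothing about them.

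The spread of the members over the arrays is given beside that of probe sets of like brightness, since dim probe sets spread more. The SD over the 4 arrays, which are single arrays at different times and not replicates, had a median of 0.33 log2 units over the 9 members and 0.29 over all tested probe sets. The tested probe sets were divided by mean level into 4 bands of equal size. In the dimmest band, where the median SD was 0.53, Tnfrsf1a had SDs of 0.67 and 0.60 and Nfkb2 had 0.24. In the next band, with a median SD of 0.33, Relb had 0.42 and Tnfrsf1b 0.36. In the band above it, with a median of 0.24, the SDs of Nfkbia were 0.12 and 0.33 and that of Nfkbib was 0.31. Rela lay in the brightest band, with an SD of 0.15 where the median was 0.19.

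**Figure D3:**
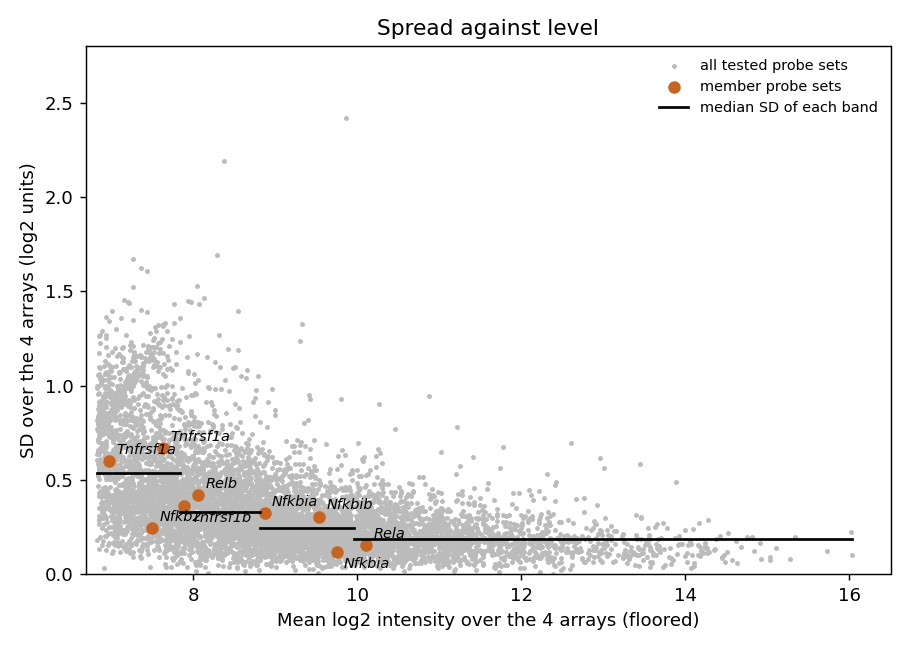
SD over the 4 arrays against mean log2 intensity for the 7453 tested probe sets (grey) and the 9 member probe sets (orange, named), with the median SD of each of the 4 brightness bands as a black line. Dim probe sets spread more, and the members lie within the grey cloud, Tnfrsf1a highest and Nfkbia on 101554_at lowest.

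Other genes of the pathway were compared in the same fit through 3 lists, with the probe set of highest mean for each gene. Of 30 genes of upstream signalling (ligands, receptors and adaptors) 21 were on the array and 11 were tested. None of the 11 passed after adjustment in either direction under limma, where 0.0% of all tested probe sets did. An unadjusted p under 0.05 was found for 1 of the 11, where 5.13% of all tested probe sets had one. The gene was Tradd, the adaptor that binds TNFR1, on 160689_r_at, a probe set chosen under relaxed rules. It read 323, 620.3, 688 and 942 at 1, 2, 4 and 6 hr, each higher than the one before (slope 0.26 log2 units per hr, limma adjusted p = 0.889). Lta, a ligand of both TNF receptors, read 452, 299.8, 860.4 and 472, highest at 4 hr as Tnfrsf1a was. On the dimmer Lta probe set the 4 hr array again held the maximum, 169, while those at 2 and 6 hr lay under the floor. Tnf itself, the ligand of both receptors and singled out here after its values were seen, read 39.5, 104, 51.7 and 40.3, above the floor at 2 hr alone, and was not tested. At the other end, Irak1, a kinase of the interleukin-1 receptor pathway, read 515, 489, 328.5 and 617, and Tab2, an adaptor of the kinase TAK1, read 1664, 1912, 1533 and 1705. Both later values lay above both earlier ones for 6 of the 11, where 18.0% of all tested probe sets did so, and the median difference of later from earlier arrays was 0.27 log2 units.

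Among further regulators of NF-kB no gene passed in either direction. Of 24 genes 18 were on the array and 12 were tested. Under limma 0 of the 12 passed after adjustment and 0 had an unadjusted p under 0.05. Of all tested probe sets 0.0% and 5.13% did. The median difference of later from earlier arrays was -0.02 log2 units over the 12. Ikbkg, the regulatory subunit NEMO of the IkB kinase complex, read 311, 242, 325 and 326 at 1, 2, 4 and 6 hr. Its other probe set read 83.5, 179, 218 and 163, lowest at 1 hr rather than 2 hr. Hdac3, a deacetylase that acts on p65, read 431, 494, 590.4 and 544. Tnip1, which restrains TNF signalling, read 865, 1159, 754 and 749, and Birc2, the ubiquitin ligase cIAP1, read 471.5, 342, 488 and 254. The other probe set of Birc2 was under the floor at 2 hr and read 235.5 to 302 on the other arrays, so the 2 disagreed on which array was lowest.

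Among target genes of NF-kB no gene passed in either direction either. Of 28 genes 27 were on the array and 14 were tested. Under limma 0 of the 14 passed after adjustment and 0 had an unadjusted p under 0.05. Of all tested probe sets 0.0% and 5.13% did. Slopes were above 0 for 5 of the 14 and below 0 for 9, where 50.9% of all tested probe sets had slopes above 0. The median difference of later from earlier arrays was -0.05 log2 units over the 14. The array at 1 hr held the highest value of 8 of the 14, where it did so for 25.9% of all tested probe sets. The summed intensity of the blood markers was also highest at 1 hr, at 4096 against 2229 to 3376 on the other arrays. Of 7 blood markers 1 was above the floor on all 4 arrays, Cd3e was under it on all, and the part of blood in these values was not tested. Plau, the urokinase plasminogen activator, read 143, 86.1, 151.5 and 164 at 1, 2, 4 and 6 hr, and Cd83, a surface protein of activated immune cells, read 157.5, 173, 227 and 181. The other Cd83 probe set read 161, 127, 30.4 and 141, lowest and under the floor at 4 hr. Mcl1, a protein that opposes apoptosis, read 530.4, 630.4, 559.7 and 399. Gadd45b, a stress-induced gene, read 371, 321, 306 and 225 on 161666_f_at, while its other probe set was highest at 4 hr, at 317. On the probe set of highest mean none of the 37 tested genes of the 3 lists stood apart on an array, where 7.53% of all tested probe sets did. That share fell from 22.9% in the dimmest band of mean level to 0.38% in the brightest. Dimmer probe sets were left out of this count. The tested dimmer one of Birc2 did stand apart, at 2 hr 4.31-fold below the next lowest array on floored values.

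**Figure D4:**
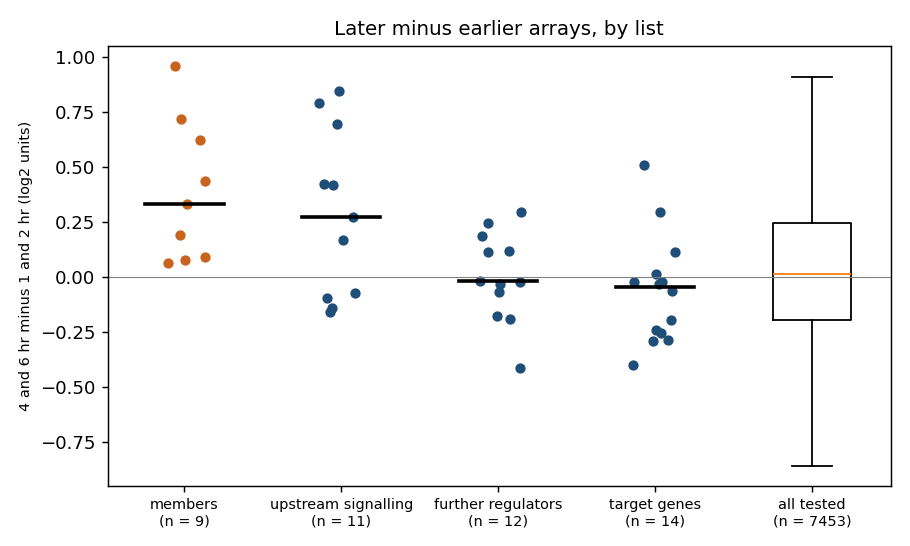
Difference of the mean log2 value at 4 and 6 hr from that at 1 and 2 hr, 1 point per tested probe set, for the members and the 3 pathway lists, with the median as a black bar and all 7453 tested probe sets as a box (median and quartiles, whiskers to 1.5 times the interquartile range). The medians are 0.33 for the members, 0.27 for upstream signalling, -0.02 for further regulators and -0.05 for target genes, against 0.01 for all.

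The patterns most like those of the members over the 4 arrays were sought for the 2 genes whose brightest probe set spanned at least 1 log2 unit, among 6701 tested probe sets of other genes. Likeness was the distance between log2 values centred on their own mean, over 4 arrays. For Tnfrsf1a on 161194_r_at the nearest were Gsx1, which read 103, 68.2, 198 and 122 at 1, 2, 4 and 6 hr (distance 0.11), and Clk4, which read 252, 190.5, 523 and 336 (distance 0.12). For Ikbkb they were Klf5, at 497, 325, 216 and 382 (distance 0.14), and Epop, at 508, 309, 220.3 and 448 (distance 0.17). The 4 values of each follow the member's order of arrays. These are descriptions of 4 arrays and carry no test.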

How the data were processed

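The 4 single-channel arrays were grouped by the hour of extraction in the labels, 1 array each. The authors deposited 1 linear intensity per probe set and array, and the method of summary is not given in these sources. Means after trimming 2% at each end agree between arrays, so the values were scaled to a common level before deposit, which hides any change shared by most genes. No detection calls were used here.

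Genes were named from the platform's annotation, and all 13 member probe sets matched RefSeq symbols through the Entrez identifier. The 66 control probe sets were left out. Values under the floor of 54.7 were set to it and log2 was taken. The 7453 probe sets with a mean above the 40th percentile were tested with limma 3.58.1 (R 4.3.3; eBayes on a line over the hours, 2 residual degrees of freedom, two-sided, Benjamini-Hochberg at 0.05). Separate animals are not stated for these arrays. The p-values therefore reflect only how the 4 arrays scatter about a line or, in the contrast, about the later and earlier means. That scatter may be technical. In limma each probe set's variance is also drawn towards that of all tested probe sets. The number of arrays limits the precision.

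All members are named. Of the pathway lists, the 2 largest positive and 2 largest negative differences of 4 and 6 hr from 1 and 2 hr are named. So is any gene standing apart on its probe set of highest mean. The 2 patterns nearest to each member gene that spans at least 1 log2 unit are named too. Members and lists were chosen with earlier results of these data known. Alternatives were other normalizations, floors, filters, time scales and variance models, and each array left out.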

Additional observations from a re-analysis of the deposited data

How the results depend on the processing

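No probe set, member or other pathway gene passed the adjusted threshold for a line over the hours under any of the 14 alternatives run, so that count was 0 throughout. At an unadjusted p under 0.05, 1 of 13 members passed without a filter on mean level (Nfkbia on 104149_at), where 6.30% of all tested probe sets did, and 1 of 9 without the 6 hr array (Tnfrsf1a on 92793_at), where 5.38% did. The count of 1 member standing apart was 0 with the floor at the 40th percentile, which lies above the 1 hr value of 92793_at, where 3.65% of all tested probe sets stood apart, and 3 with a distance of 0.5 log2 units, where 27.9% did. It ran from 0 to 2 with 1 array left out, where 8.90% to 10.02% did. It was 0 without the 1 hr array, 0 without the 4 hr array, where the mean of 92793_at no longer passed the filter, and 2 without the 6 hr array, where Tnfrsf1a on 161194_r_at was added. With the other normalizations and floors run, every tested member slope kept its sign. With each array left out in turn, slopes ran from -0.016 to 0.048 log2 units per hr for Nfkbia on 101554_at, from -0.14 to 0.24 for Relb, from -0.064 to 0.042 for Nfkb2, from -0.0056 to 0.12 for Nfkbib and, over the 3 cases in which it passed the filter, from 0.010 to 0.43 for Tnfrsf1a on 92793_at. Relb turned without the 6 hr array, its lowest, and with log2 of hours, planned for the counts and added for single slopes after seeing the data, where its slope was 0.013 per doubling of time. With the floor at the 40th percentile the slope of 92793_at was 0.053. Later-minus-earlier differences turned under a shift to a common median for Nfkbia on 101554_at (-0.022), Relb (-0.010) and Nfkb2 (-0.035), and under quantile normalization for Nfkb2 (-0.056). No paired analysis was possible because each time has 1 array. The dim members, Rel, Ikbkb and the second probe sets of Rela and Relb, are limited by their closeness to the floor.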
